A study of Rattus norvegicus with 16 samples.

Results

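The PI3K, Akt and mTOR growth signalling pathway was followed through 9 genes: Pik3r1, Pik3ca, Akt1, Akt2, Mtor, Gsk3b, Tsc2, Rps6kb1 and Eif4ebp1. A probe set belonged to a gene when its only symbol in the platform annotation was exactly that gene's. This gave 20 probe sets, out of 20826 with a single symbol that stand for 14217 genes. Pik3ca had 6 probe sets, Akt2 had 4, Akt1 had 3, Rps6kb1 had 2, and the other genes had 1 each. All of them are described here, and the probe set with the highest mean over the 16 arrays, called the brightest, stands for its gene.

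Insulin and related growth factors activate class I PI3K, a lipid kinase made of a regulatory subunit (p85 alpha, from Pik3r1) and a catalytic subunit (p110 alpha, from Pik3ca). The lipid it makes brings Akt to the membrane, where Akt is phosphorylated and in turn inhibits the kinase Gsk3 beta and the TSC complex, a brake on the kinase mTOR. Active mTOR complex 1 phosphorylates S6 kinase (Rps6kb1) and the translation repressor 4E-BP1 (Eif4ebp1), which raises protein synthesis. In the heart this route is known for its part in the physiological growth that follows endurance exercise. Its activity is set mostly by phosphorylation, which an mRNA array does not measure.

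RNA of the left ventricle was measured in 16 female rats, 1 rat per Affymetrix RAE 230 2.0 array. The rats were of generation 16 of 2 lines bred out of N:NIH stock by running tests at about 11 weeks of age, the high capacity runners (HCR) and the low capacity runners (LCR). The 4 groups of 4 rats were HCR trained, HCR sedentary, LCR trained and LCR sedentary, all about 7 months old. Trained rats ran uphill on a treadmill inclined by 25° for 8 weeks, on 5 days a week and 1.5 h a day. The running alternated 8 min at 85 to 90% of maximal oxygen uptake with 2 min at 50 to 60%. Sedentary rats were age-matched and not trained. Each line is a single selected line, so running capacity cannot be told apart from other inherited differences between the lines. A different amount of RNA and a line difference in the sequence under the probes cannot be told apart either, since the probe sequences were not used here.

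The table holds RMA summaries on a log scale, read here as log2, and its values ran between 3.24 and 14.54 over all arrays. Array medians lay between 5.85 and 5.95, and any pair of arrays correlated at 0.984 to 0.995. Of 10 ventricular cardiomyocyte markers 9 were measured. Their means over the arrays ran between 12.15 for Ryr2 and 14.30 for Myl2. A probe set was called where limma gave a Benjamini-Hochberg adjusted p of 0.05 or less over 31042 probe sets. Errors of differences are standard errors of that fit, errors of group means are SD over 4 rats, and every adjusted p below comes from limma. With 4 arrays per group, their number limits the precision.

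The stretch around the annotated gene start, 250 bases before it and 50 after, was read from RefSeq on the rat assembly GRCr8, and 8 of the 9 members had an entry. The Pik3ca entry has the letters ATG at its annotated start, which may be the start of its coding sequence. That was not checked against coding positions. It is therefore not read as a promoter and is not shown, and it held 1 forkhead motif (described below). Whether the other entries start where transcription begins in the ventricle was not tested. These 2 are shown because Pik3r1 held a called probe set and Mtor is the kinase that names the pathway. Capitals mark matches, on either strand, to the GC box (GGGCGG) and the CCAAT box (CCAAT), and neither held the forkhead motif (TGTTTAC) that Foxo factors, targets of Akt, can bind. No match overlapped another.
Pik3r1, chr2:34697611-34697910, minus strand: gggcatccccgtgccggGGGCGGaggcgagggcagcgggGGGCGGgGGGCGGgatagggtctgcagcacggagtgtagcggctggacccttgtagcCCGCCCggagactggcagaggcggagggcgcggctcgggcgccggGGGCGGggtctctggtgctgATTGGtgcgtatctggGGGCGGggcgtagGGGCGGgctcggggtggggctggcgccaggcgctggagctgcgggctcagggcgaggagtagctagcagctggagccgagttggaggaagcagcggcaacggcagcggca
Mtor, chr5:164167735-164168034, plus strand: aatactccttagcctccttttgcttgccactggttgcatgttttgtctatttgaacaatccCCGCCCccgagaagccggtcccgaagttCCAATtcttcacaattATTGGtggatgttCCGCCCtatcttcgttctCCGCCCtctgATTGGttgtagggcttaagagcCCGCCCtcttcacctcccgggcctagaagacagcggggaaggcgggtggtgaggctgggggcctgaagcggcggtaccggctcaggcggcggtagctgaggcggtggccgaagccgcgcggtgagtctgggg

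The Pik3r1 stretch was the most GC-rich of the members' entries, at 75.3% G or C, against a median of 51.7% over 33469 RefSeq entries of this length. It held 7 GC boxes and 1 CCAAT box. The Mtor stretch, at 60% G or C, held 4 GC boxes and 3 CCAAT boxes. Tsc2 held 1 GC box, and the stretches of Akt1, Akt2, Gsk3b and Rps6kb1 held none of the 3 motifs. Over all RefSeq entries, 33.1% held a GC box, 37.5% a CCAAT box and 3.78% a forkhead motif.

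Among sedentary rats, the probe set of the regulatory subunit gene Pik3r1 was called higher in HCR than in LCR ventricles. For the catalytic subunit gene Pik3ca 1 of 6 probe sets, not its brightest, was called lower. The Pik3r1 call held in 14 of 25 alternatives and the Pik3ca call in 11 of 24. These were the only members called: 2 of 20 probe sets, 1 higher and 1 lower, where 4.99% of all probe sets were called, 2.01% higher and 2.98% lower. Most of the other members had slightly lower means in sedentary HCR rats without passing the test. Of the 20 probe sets, 5 had a higher and 15 a lower mean in HCR, and the median difference was -0.15, against -0.06 over the probe sets of at least median brightness and 0.02 over all. At an unadjusted p under 0.05 there were 10 of 20, against 8612 of 31042. In a bulk tissue, fewer cells of a type and less RNA per cell cannot be told apart.

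Pik3r1 (probe set 1370114_a_at) read 7.49, 7.67, 6.62 and 7.26 in HCR sedentary rats, against 6.85, 6.37, 6.04 and 6.34 in LCR sedentary rats. Of the HCR sedentary rats, 3 lay above every LCR sedentary rat, and HCR sedentary rat 5 lay below LCR sedentary rat 2, so the groups overlapped. The means were 7.26 ± 0.46 in HCR and 6.40 ± 0.33 in LCR, a difference of 0.86 ± 0.23, or 1.81-fold higher in HCR (adjusted p = 0.0462, limma). This was the largest absolute difference among the member probe sets in any of the 7 comparisons made. In trained rats the values were 6.60, 7.55, 6.69 and 7.11 for HCR, against 6.98, 6.42, 6.88 and 6.69 for LCR. The trained lines overlapped widely, with a difference of 0.24 ± 0.23 (adjusted p = 0.908, limma).

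The order of the Pik3r1 group means was HCR sedentary, HCR trained, LCR trained and LCR sedentary, highest first. Only the step between LCR trained and LCR sedentary, 0.34, was larger than the larger SD of the pair, 0.33. Averaged over training, the line difference was 0.55 ± 0.16 (adjusted p = 0.0657, limma), which did not pass. The direction of the sedentary difference did not depend on any single rat: leaving out 1 array at a time gave 0.72 to 1.07. The call did. It was lost without HCR sedentary rat 3, 4 or 6, LCR sedentary rat 3, 5 or 6, HCR trained rat 5 or LCR trained rat 3, with adjusted p between 0.0516 and 0.131 (limma).

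Pik3ca was read by 6 probe sets of different brightness, and the call rested on the third of them in brightness, 1382366_at. It read 7.09, 6.89, 7.00 and 7.03 in HCR sedentary rats, against 7.30, 7.28, 7.24 and 7.28 in LCR sedentary rats. Every HCR sedentary rat lay below every LCR sedentary rat. The difference was -0.27 ± 0.08, or 1.21-fold lower in HCR (means 7.00 ± 0.08 in HCR and 7.28 ± 0.03 in LCR, adjusted p = 0.0484, limma). The call was lost without HCR sedentary rat 4, 5 or 6, any LCR sedentary rat, HCR trained rat 4 or 5, or LCR trained rat 1, with adjusted p between 0.0505 and 0.134 (limma), while the difference stayed between -0.24 and -0.30.

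The brightest Pik3ca probe set, 1379041_at, read 8.27, 8.35, 8.21 and 8.33 in HCR sedentary rats, against 8.48, 8.52, 8.50 and 8.53 in LCR sedentary rats. These groups also did not overlap, with a difference of -0.22 ± 0.07 that did not pass (adjusted p = 0.0736, limma). Probe set 1389143_at differed by -0.21 ± 0.06 (adjusted p = 0.0582, limma) and 1374232_at by -0.14 ± 0.07 (adjusted p = 0.190, limma), and both had every HCR sedentary rat below every LCR sedentary rat. The remaining Pik3ca probe sets, 1393499_at and 1396411_at, overlapped between the lines and differed by -0.23 ± 0.18 and -0.05 ± 0.07. All 6 probe sets of the gene thus had the lower mean in HCR sedentary rats. They share their rats and their gene and are not independent readings.

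**Figure D1:**
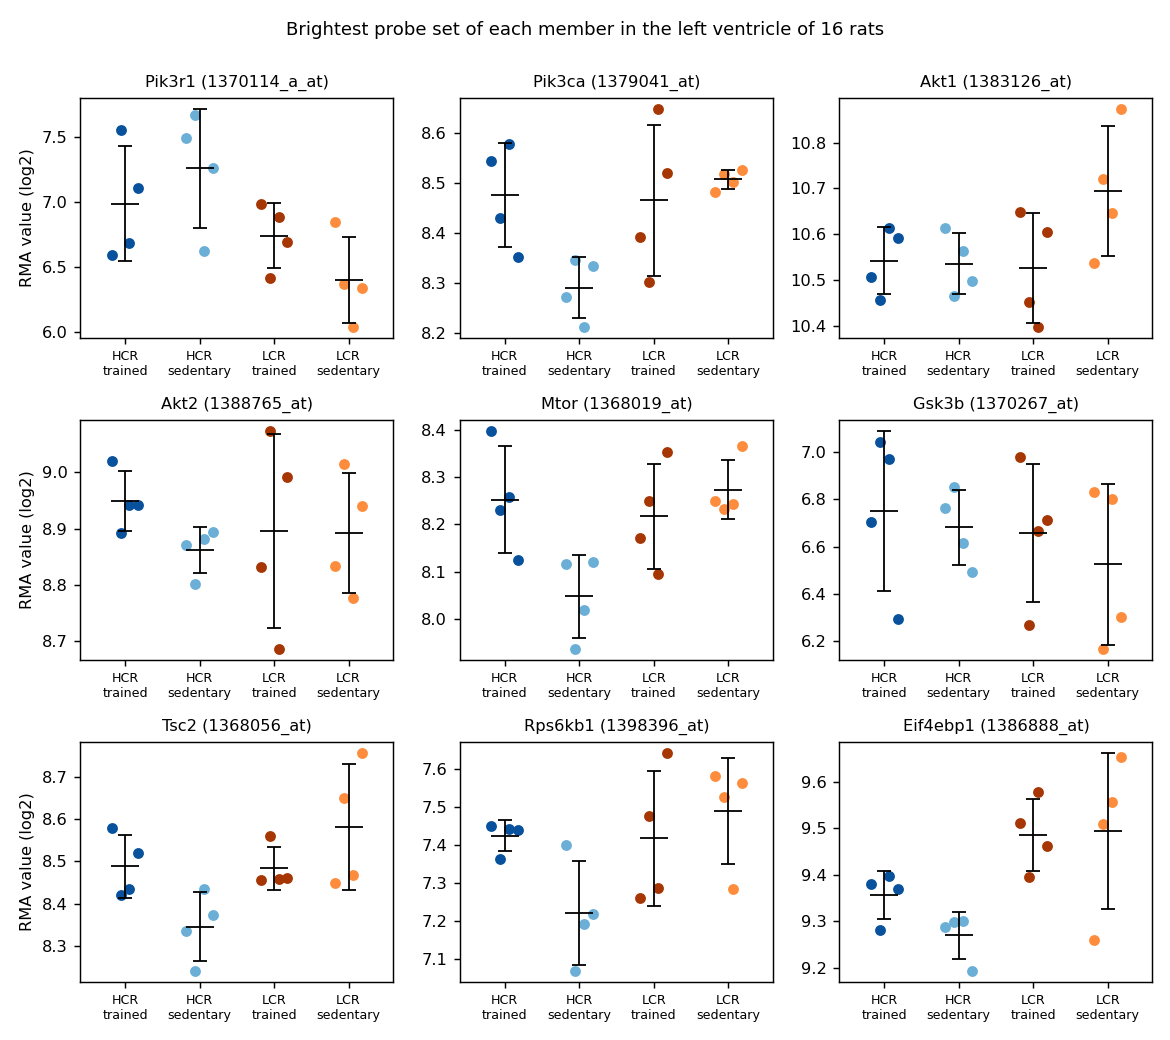
RMA value (log2) of the brightest probe set of each of the 9 members in each rat, 4 rats per group, with a line for the group mean and bars of 1 SD. Pik3r1 shows 3 of 4 HCR sedentary rats above all LCR sedentary rats, while Pik3ca, Mtor and Tsc2 show every HCR sedentary rat below every LCR sedentary rat.

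Of the kinases downstream of PI3K, Akt1 and Akt2 gave no call. The brightest Akt1 probe set, 1383126_at, read 10.61, 10.47, 10.56 and 10.50 in HCR sedentary rats, against 10.54, 10.72, 10.65 and 10.87 in LCR sedentary rats. The groups overlapped, with a difference of -0.16 ± 0.07 (adjusted p = 0.178, limma). The other Akt1 probe sets did not share a direction: 1368862_at differed by -0.18 ± 0.07 (adjusted p = 0.116, limma) and the dim 1375178_at by 0.12 ± 0.07 (adjusted p = 0.256, limma). Akt2, the isoform best known for insulin-driven glucose uptake, differed by -0.03 ± 0.08 on its brightest probe set, 1388765_at (adjusted p = 0.814, limma). Its 95% interval ran from -0.19 to 0.13. The other 3 Akt2 probe sets differed by -0.01 ± 0.09, 0.19 ± 0.11 and 0.09 ± 0.08, all with overlapping groups.

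Gsk3b, the glycogen synthase kinase that Akt inhibits, read 6.76, 6.85, 6.62 and 6.49 in HCR sedentary rats, against 6.83, 6.17, 6.80 and 6.30 in LCR sedentary rats (probe set 1370267_at). Both groups spread widely, and the difference was 0.16 ± 0.18 (adjusted p = 0.589, limma). Tsc2 encodes tuberin, the subunit of the TSC complex that Akt phosphorylates. It read 8.34, 8.24, 8.43 and 8.37 in HCR sedentary rats, against 8.45, 8.65, 8.47 and 8.76 in LCR sedentary rats (probe set 1368056_at). The groups did not overlap, by a margin smaller than their own spread, and the difference of -0.24 ± 0.07 did not pass (adjusted p = 0.0591, limma). Of 16 arrays left out in turn, only the loss of LCR sedentary rat 2 brought a call for Tsc2 (adjusted p = 0.0424, limma).

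Mtor, the kinase at the centre of both mTOR complexes, read 8.12, 7.94, 8.02 and 8.12 in HCR sedentary rats, against 8.25, 8.23, 8.24 and 8.37 in LCR sedentary rats (probe set 1368019_at). Every HCR sedentary rat was below every LCR sedentary rat, with a difference of -0.22 ± 0.07 that did not pass (adjusted p = 0.0660, limma). For its substrates the values were as follows. Rps6kb1, S6 kinase 1, read 7.40, 7.07, 7.19 and 7.22 in HCR sedentary rats, against 7.58, 7.53, 7.28 and 7.56 in LCR sedentary rats (probe set 1398396_at). HCR sedentary rat 3 lay above LCR sedentary rat 5, so the groups overlapped, and the difference was -0.27 ± 0.09 (adjusted p = 0.0781, limma). Of 16 arrays left out in turn, only the loss of HCR sedentary rat 3 brought a call for this probe set (adjusted p = 0.0468, limma). The dimmer Rps6kb1 probe set, 1368116_a_at, differed by -0.11 ± 0.13.

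Eif4ebp1, the repressor of cap-dependent translation that mTOR complex 1 inactivates, read 9.29, 9.30, 9.30 and 9.19 in HCR sedentary rats, against 9.26, 9.51, 9.56 and 9.65 in LCR sedentary rats (probe set 1386888_at). A single LCR sedentary rat, rat 2, lay within the HCR sedentary range. The difference was -0.22 ± 0.07 (adjusted p = 0.0695, limma), and without LCR sedentary rat 2 it was -0.30 with an adjusted p of 0.0186 (limma). No other left-out array brought a sedentary call for Eif4ebp1. Averaged over training the line difference was -0.18 ± 0.05 (adjusted p = 0.0583, limma), the lowest adjusted p of any member in that comparison.

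Counted over all 20 probe sets, 6 had no overlap between the sedentary lines, all of them lower in HCR, where 18.3% of all probe sets did not overlap, 10.2% higher and 8.08% lower in HCR. They were 4 of Pik3ca, 1 of Mtor and 1 of Tsc2. Brighter probe sets more often lay lower in HCR. Of the 17 member probe sets of at least median brightness, 5 were lower without overlap and 0 higher. Of all 15521 that bright, 2192 were lower and 1054 higher without overlap. Among the 9 brightest probe sets, 2 had a higher and 7 a lower mean in HCR, 3 of those 7 without overlap. Over the brightest probe sets of all 14217 genes, 6591 had a higher and 7626 a lower mean, 1260 and 1615 of them without overlap. The median difference was -0.22 for the 9, against -0.02 for all genes.

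**Figure D2:**
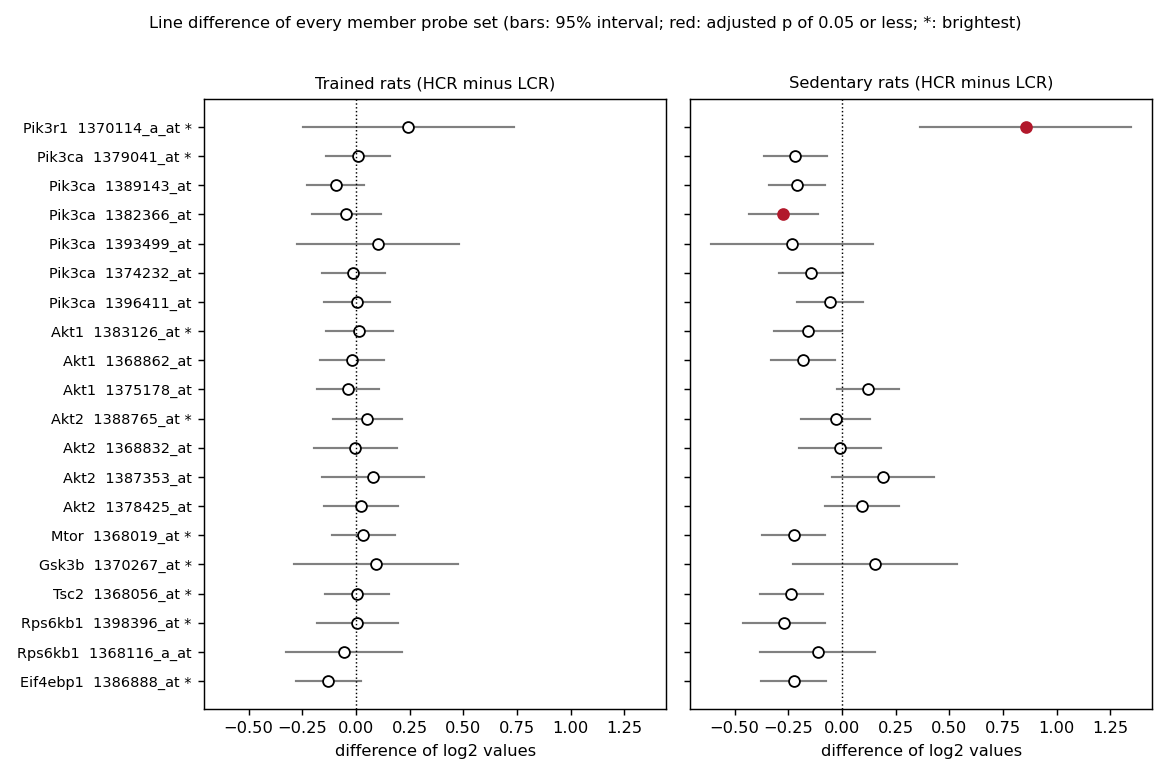
Line difference (HCR minus LCR, difference of log2 values) of all 20 member probe sets in sedentary rats and in trained rats, with 95% intervals from limma, red where the adjusted p was 0.05 or less and a star at the brightest probe set of each gene. In sedentary rats only Pik3r1 and Pik3ca 1382366_at are red, at 0.86 and -0.27, and in trained rats none is.

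Between the trained lines no member was called, with a lowest adjusted p of 0.759 (limma), where 0.0966% of all probe sets were. None of the 20 had an unadjusted p under 0.05 in that comparison, against 2274 of 31042. There were 12 higher and 8 lower means in HCR, none without overlap, where 3.14% of all probe sets did not overlap. The median difference was 0.01. For Mtor the trained lines differed by 0.04 ± 0.07 and for Pik3ca 1382366_at by -0.05 ± 0.08, with intervals of -0.11 to 0.18 and -0.21 to 0.11. For Eif4ebp1 the difference was -0.13 ± 0.07 (adjusted p = 0.759, limma).

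Averaged over training, none of the 20 probe sets was called between the lines, where 3.84% of all probe sets were. There were 5 with an unadjusted p under 0.05, against 7481 of 31042. They were Pik3r1, Eif4ebp1, Tsc2 at -0.12 ± 0.05 (adjusted p = 0.167, limma), and Pik3ca 1389143_at at -0.15 ± 0.04 and 1382366_at at -0.16 ± 0.05 (adjusted p = 0.0595 and 0.0895, limma). None of the 20 was free of overlap between all 8 HCR and all 8 LCR rats, where 0.383% of all probe sets were.

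Training did not give a called difference in any member in either line. In HCR rats, limma called 0 of 31042 probe sets after training (0% of all), and 4308 had an unadjusted p under 0.05, 4 of them among the members. These were Mtor, Pik3ca 1379041_at and 1382366_at, and Rps6kb1 1398396_at. Mtor read 8.40, 8.23, 8.26 and 8.12 in HCR trained rats, against the HCR sedentary values given above. All 4 trained rats were above all 4 sedentary rats, and the difference was 0.20 ± 0.07 (adjusted p = 0.258, limma). Pik3ca 1379041_at read 8.54, 8.43, 8.58 and 8.35 in HCR trained rats, also all above the sedentary rats, with a difference of 0.18 ± 0.07 (adjusted p = 0.289, limma). The margin was 0.01 or less for both genes, and 3.78% of all probe sets were higher without overlap. Of the probe sets of at least median brightness, 937 of 15521 were. Pik3r1 differed by -0.27 ± 0.23 between trained and sedentary HCR rats (adjusted p = 0.604, limma).

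In LCR rats 0 of 20 member probe sets were called after training, where 0.00322% of all were. The 2 with an unadjusted p under 0.05 were both of Akt1: 1383126_at at -0.17 ± 0.07 and 1368862_at at -0.18 ± 0.07 (adjusted p = 0.877 and 0.814, limma). The third Akt1 probe set, the dim 1375178_at, differed by 0.02 ± 0.07. Pik3r1 differed by 0.34 ± 0.23 (adjusted p = 0.963, limma) and Mtor by -0.06 ± 0.07. No member was free of overlap, where 2.82% of all probe sets were.

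Whether the lines responded unequally to training was tested directly (HCR minus LCR), and limma called 0 of 31042 probe sets (0% of all), with 3068 at an unadjusted p under 0.05. Of the members 5 were at that level. Mtor had the lowest adjusted p, 0.480, at 0.26 ± 0.10 (limma), and the others were Tsc2 at 0.24 ± 0.10, Rps6kb1 1398396_at at 0.28 ± 0.13, and Pik3ca 1379041_at and 1382366_at, both at 0.23. Pik3r1 had the largest absolute value, -0.61 ± 0.33 (adjusted p = 0.549, limma). This comparison shares its sedentary rats with the sedentary line comparison. Training averaged over both lines called no member either, where 0.00644% of all probe sets were called, with 0 of 20 at an unadjusted p under 0.05 against 2867 of 31042, and a lowest adjusted p of 0.560 (limma). None was free of overlap between the 8 trained and 8 sedentary rats, where 0.0419% of all probe sets were.

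The 9 genes fell into a few orders of group means. LCR sedentary was highest and HCR sedentary lowest for Pik3ca, Mtor, Tsc2, Rps6kb1 and Eif4ebp1, and in each of these 5 the step down to HCR sedentary was larger than the larger SD of the 2 groups it parts. The steps among the upper 3 groups were within that SD for all 5 except the step between LCR trained and HCR trained in Eif4ebp1, 0.13 against an SD of 0.08. For Akt1 LCR sedentary was highest, by 0.15 against an SD of 0.14, and the other 3 groups lay within 0.02 of each other. For Akt2 and Gsk3b no neighbouring groups differed by more than their SD.

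The sedentary lines also differed in the spread of values on their arrays. The interquartile range of an array over all probe sets was 2.13 ± 0.05 in HCR trained, 2.02 ± 0.06 in HCR sedentary, 2.15 ± 0.10 in LCR trained and 2.17 ± 0.03 in LCR sedentary rats. HCR sedentary arrays, at 1.97 to 2.10, lay below LCR sedentary arrays, at 2.14 to 2.21, without overlap. Over the 16 arrays, 3 of the 9 genes correlated with this range by r and 1 by rho at an adjusted permutation p of 0.05 or less. These permutations ran across the groups, whose ranges differ. The share of all genes that correlate with the range was not computed, so whether 3 of 9 is unusual is not known. The brightest Pik3ca probe set correlated with the range at r = 0.776 and rho = 0.759. Two-sided permutation p-values, adjusted over the 9 genes, were 0.00315 and 0.00837. For Mtor r was 0.753 and rho 0.565 (permutation, adjusted p = 0.00315 and 0.0738), and for Rps6kb1 r was 0.694 and rho 0.597 (permutation, adjusted p = 0.009 and 0.0738).

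For Pik3r1 r was -0.351 and rho -0.300 (permutation, adjusted p = 0.273 and 0.387). Without the 2 arrays farthest from the median range, r was 0.696 for Pik3ca, 0.568 for Mtor, 0.493 for Rps6kb1 and -0.309 for Pik3r1. Over the 12 arrays outside the HCR sedentary group it was 0.636, 0.450, 0.337 and -0.094 in the same order of genes. For the other 5 genes r lay between 0.046 for Akt2 and 0.544 for Eif4ebp1, with adjusted permutation p of 0.0686 or more.

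**Figure D3:**
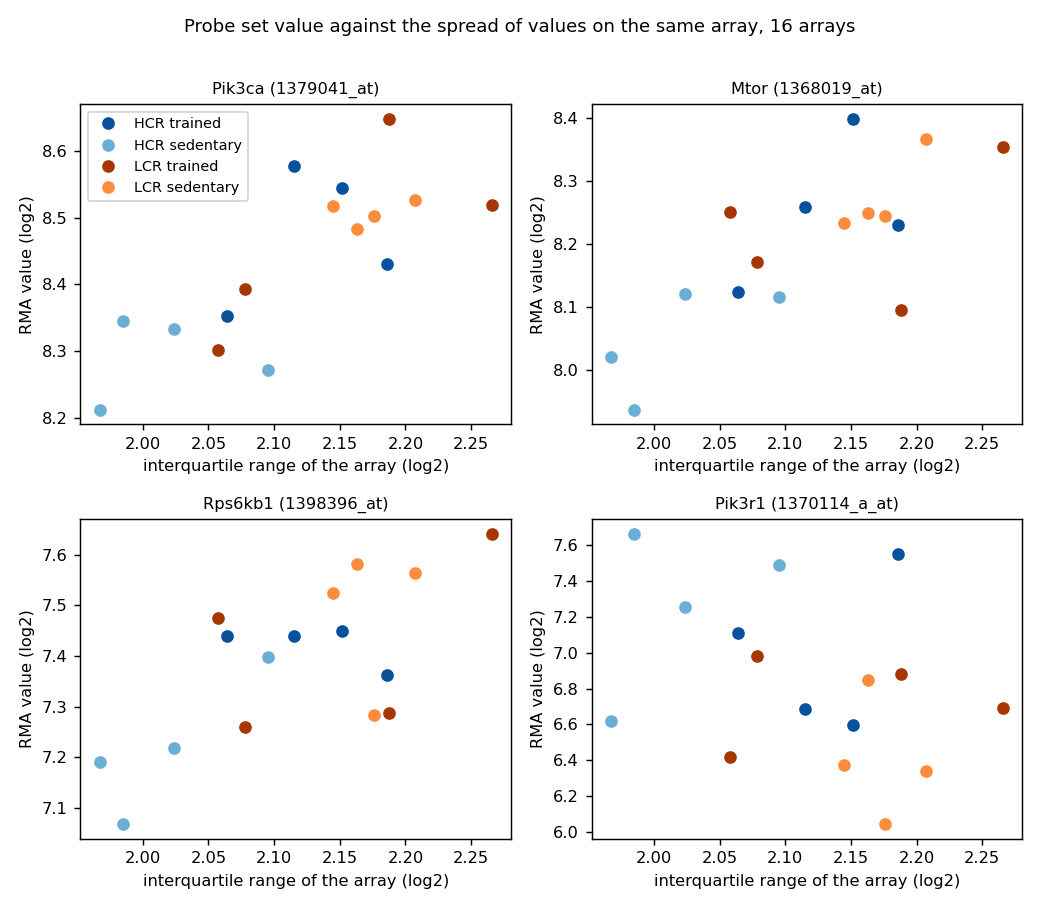
RMA value (log2) of 4 members' brightest probe sets against the interquartile range of all values on the same array, 16 arrays coloured by group. The HCR sedentary arrays sit at the narrow end of the range, and Pik3ca and Mtor correlate with it at r = 0.776 and 0.753.

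Treating the array scale in other ways moved the members in different directions. With quantile normalization of the deposited values, which gives every array the same spread, Mtor differed by -0.11 between the sedentary lines, Pik3ca 1382366_at by -0.20, Eif4ebp1 by -0.10 and Tsc2 by -0.11. Pik3ca 1374232_at, at -0.21, and Rps6kb1 1368116_a_at, at -0.13, lay farther from 0 than as deposited. Akt2 then had the higher mean in HCR, at 0.09. No member was called, and the call of Pik3r1 was lost at 0.89 (adjusted p = 0.0589, limma). With arrays centred on their medians, 8 probe sets were called: Pik3r1 at 0.80, and, all lower in HCR, Mtor, Tsc2, Rps6kb1 1398396_at, Eif4ebp1 and 3 of Pik3ca. Over all probe sets that centring gave 298 higher and 2162 lower calls, against 623 higher and 926 lower in the values as deposited.

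With the interquartile range as a covariate, a setting chosen after the data were seen, 0 members and 2 of 31042 probe sets were called. Pik3r1 was then at 1.06 (adjusted p = 0.488, limma), Pik3ca 1382366_at at -0.09, Mtor at -0.11 and Tsc2 at -0.26. The range parts the sedentary groups fully, so this fit tells it from the line only by differences in range among the 4 arrays of each group. What part of the line difference goes with the range was not tested. Under the 4 treatments of the scale the difference of Pik3r1 thus ran between 0.80 and 1.06, and that of Pik3ca 1382366_at between -0.33 and -0.09.

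**Figure D4:**
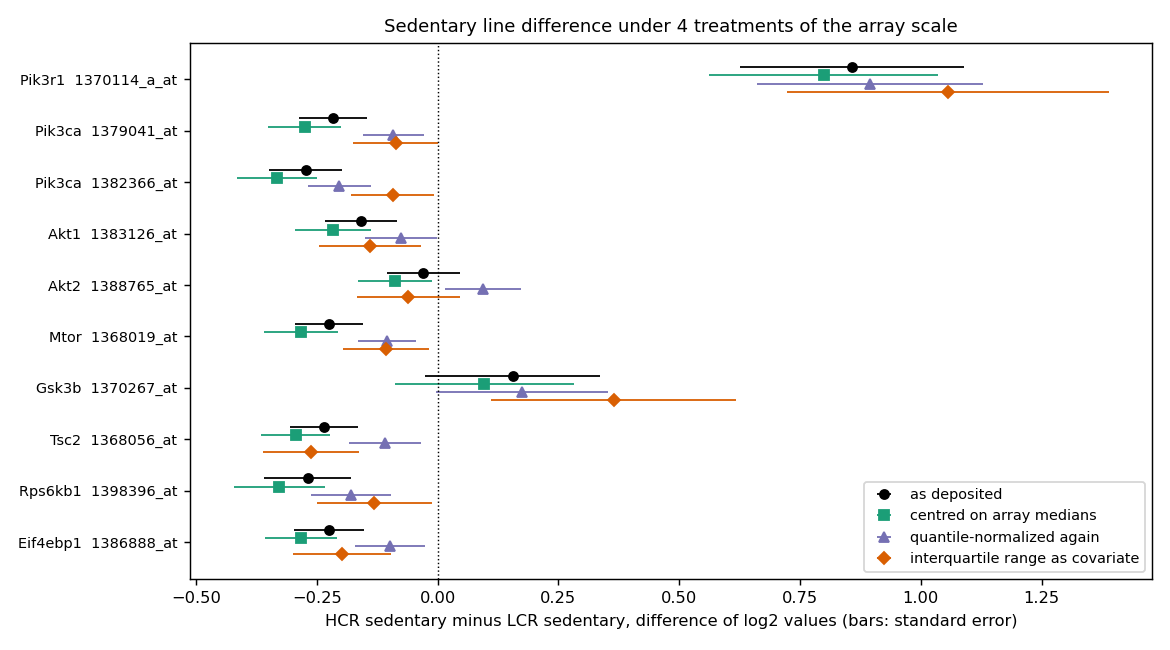
Sedentary line difference (HCR minus LCR, difference of log2 values, with standard errors) of each member's brightest probe set and of the called Pik3ca one, as deposited, with arrays centred, with quantile normalization and with the interquartile range as a covariate. Pik3r1 stays between 0.80 and 1.06, while Mtor is at -0.11 both with quantile normalization and with the covariate. Tsc2 is at -0.11 with the first and at -0.26 with the second, and Akt2 is above 0 with quantile normalization.

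No cell type marker list passed a test between groups after adjustment. Of 44 exact permutation tests of the mean marker level (11 lists, 4 comparisons of 2 groups), 4 separated the groups fully, 3 of them the sedentary lines, which gives the smallest exact two-sided p that 4 against 4 rats allow, 0.0286, or 0.314 adjusted over the 44. The fibroblast list, 8 of 8 genes measured, had lower values in HCR sedentary rats, at 8.66 to 8.91 against 8.91 to 9.10 in LCR sedentary rats, with 7 genes lower and 1 called. The adipocyte list, 7 of 8 measured, had higher values in HCR sedentary rats, at 6.29 to 6.37 against 6.18 to 6.22. The neuron and Schwann cell list, 6 of 8 measured, did too, at 5.95 to 6.06 against 5.88 to 5.95. In HCR rats the adipocyte list was at 6.17 to 6.27 in trained, against 6.29 to 6.37 in sedentary rats. Most genes of the adipocyte list and of the neuron and Schwann cell list were dim. Adipoq, Plin1, Lep, Cidec and Pck1 had means over the arrays of 4.81 to 5.41, below the median of all probe set means. S100b, Chl1, Gfap and Th, at 5.26 to 5.87, lay below it too, while Cfd, Fabp4, Sox10 and Ncam1 lay above. The part of the array spread in these list values was not tested. The ventricular cardiomyocyte list overlapped between the sedentary lines, at 13.55 to 13.59 against 13.58 to 13.61. The smooth muscle and pericyte list overlapped too, at 7.30 to 7.55 against 7.17 to 7.41, with all 7 genes higher in HCR and 2 called. The part of these markers in the member differences was not tested.

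Beyond the members, 110 of 121 other genes of the pathway, in 9 lists by role, had a probe set. Between the sedentary lines 13 were called lower and 1 higher in HCR, where 4.29% of all genes were called lower and 2% higher on their brightest probe sets. Of the 110, 33 had a higher and 77 a lower mean in HCR, with a median of -0.07 against -0.02 over all genes. No gene of these lists was called between the trained lines, after training in either line, or in the test of unequal training responses.

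Among 9 receptors and docking proteins, 2 were called lower in HCR sedentary than in LCR sedentary rats. Grb10, an adaptor that binds the insulin receptor and restrains its signal, read 8.00, 7.98, 7.90 and 7.94 in HCR sedentary rats, against 8.40, 8.59, 8.31 and 8.62 in LCR sedentary rats. The groups were clearly apart, with a difference of -0.52 ± 0.09, or 1.44-fold lower in HCR (adjusted p = 0.0150, limma). Gab1, a docking protein that recruits PI3K to receptors, differed by -0.41 ± 0.10 (adjusted p = 0.0372, limma). Of 9 other PI3K subunits 1 was called lower: Pik3c2b, a class II PI3K, at -0.65 ± 0.14 (adjusted p = 0.0261, limma).

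Of 12 phosphatases and inhibitors of PI3K and Akt, 1 was called lower, Pik3ip1, a membrane protein that inhibits the p110 subunit. It read 8.61, 8.80, 8.48 and 8.66 in HCR sedentary rats, against 8.94, 9.04, 9.18 and 9.03 in LCR sedentary rats. The groups did not overlap, and the difference of -0.41 ± 0.07 had the lowest adjusted p of the 110 genes, 0.0139 (limma). Of 11 mTOR complex subunits 1 was called lower, Rictor, which defines mTOR complex 2, at -0.42 ± 0.11 (adjusted p = 0.0422, limma).

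Among 12 genes of the TSC complex, Rheb and the stress inhibitors of mTOR complex 1, 1 was called lower and 1 higher in HCR. Ddit4 (REDD1), a stress-induced inhibitor of mTOR complex 1, read 7.58, 7.26, 7.31 and 7.24 in HCR sedentary rats, against 8.38, 7.86, 8.04 and 8.48 in LCR sedentary rats. Every HCR sedentary rat was below every LCR sedentary rat, by -0.85 ± 0.16 on average, or 1.80-fold lower (adjusted p = 0.0201, limma). This was the largest absolute difference among the 110 genes in that comparison. Tbc1d7, the smallest core subunit of the TSC complex, was higher in HCR by 0.39 ± 0.09 (adjusted p = 0.0360, limma), also without overlap.

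Of 23 genes of amino acid sensing at the lysosome 4 were called lower in HCR: Rraga, Lamtor4, Flcn and Seh1l. Rraga is a Rag GTPase, and Lamtor4 a subunit of the Ragulator that anchors it. Flcn is a GTPase activator for Rag proteins, and Seh1l a subunit of the GATOR2 complex. The 4 differences ran between -0.23 and -0.26, with adjusted p of 0.0275 to 0.0491 (limma), and only for Flcn did the groups overlap. Of 15 targets of Akt, Gsk3 and Foxo, 3 were called lower in HCR. Trim63 (MuRF1), a muscle ubiquitin ligase whose gene Foxo factors activate, differed by -0.56 ± 0.11 (adjusted p = 0.0233, limma), or 1.48-fold lower in HCR. Foxo3 and Foxo4, transcription factors that Akt keeps out of the nucleus, differed by -0.32 ± 0.09 and -0.23 ± 0.06 (adjusted p = 0.0484 and 0.0381, limma).

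In 2 lists no gene passed in any comparison. Of 6 Akt family kinases and activators, Sgk2 came closest, at 0.27 ± 0.08 between the sedentary lines (adjusted p = 0.0558, limma). Of 13 translation targets of mTOR complex 1, 12 had a lower mean in HCR sedentary rats, and Eef2k, the kinase of elongation factor 2, came closest at -0.28 ± 0.08 (adjusted p = 0.0577, limma).

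Averaged over training, 8 of the 110 genes were called lower in HCR rats and 0 higher, where 3.38% of all genes were called lower and 1.54% higher. Grb10 at -0.36 ± 0.07 (adjusted p = 0.0112, limma), Ddit4 at -0.54 ± 0.12 (adjusted p = 0.0217, limma) and Trim63 at -0.31 ± 0.08 (adjusted p = 0.0432, limma) were among them. Pik3c2b, Rraga and Foxo4 were called here as well as between the sedentary lines. Sec13, another GATOR2 subunit, and Cdkn1b, the cell cycle inhibitor p27 and a Foxo target, were called in this average and not between the sedentary lines, at -0.19 ± 0.04 and -0.29 ± 0.07 (adjusted p = 0.0193 and 0.0269, limma). Whether that differs from their sedentary values was not tested. With quantile normalization the averaged calls of Grb10 at -0.28 and Ddit4 at -0.48 held (adjusted p = 0.0170 and 0.0344, limma). Those of Pik3c2b, Rraga, Sec13, Foxo4, Cdkn1b and Trim63 were lost there, with the same sign, at adjusted p of 0.0559 to 0.209 (limma). Over the 24 alternatives of this comparison the calls of Pik3c2b and Trim63 held in 11, and that of Grb10 in 23.

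With quantile normalization the sedentary calls of Grb10 at -0.40, Pik3c2b at -0.58, Pik3ip1 at -0.29, Tbc1d7 at 0.41, Ddit4 at -0.75 and Trim63 at -0.45 held, at adjusted p of 0.0238 to 0.0494 (limma). Those of Gab1, Rictor, Rraga, Lamtor4, Flcn, Seh1l, Foxo3 and Foxo4 were lost there, with the same sign, at adjusted p of 0.0935 to 0.307 (limma). Over the 25 alternatives, left-out arrays included, the sedentary calls held in 9 for Flcn and in up to 23 for Pik3ip1, with the other genes between these. Without LCR sedentary rat 6 only 35 of 31042 probe sets were called at all, without HCR sedentary rat 4 there were 103, and without HCR sedentary rat 5 there were 112. Dimmer probe sets of Foxo3, Pik3c2b, Pik3ip1, Seh1l and Grb10 had a higher mean in HCR sedentary rats without passing, and 1 each of Grb10 and Rictor a lower one.

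**Figure D5:**
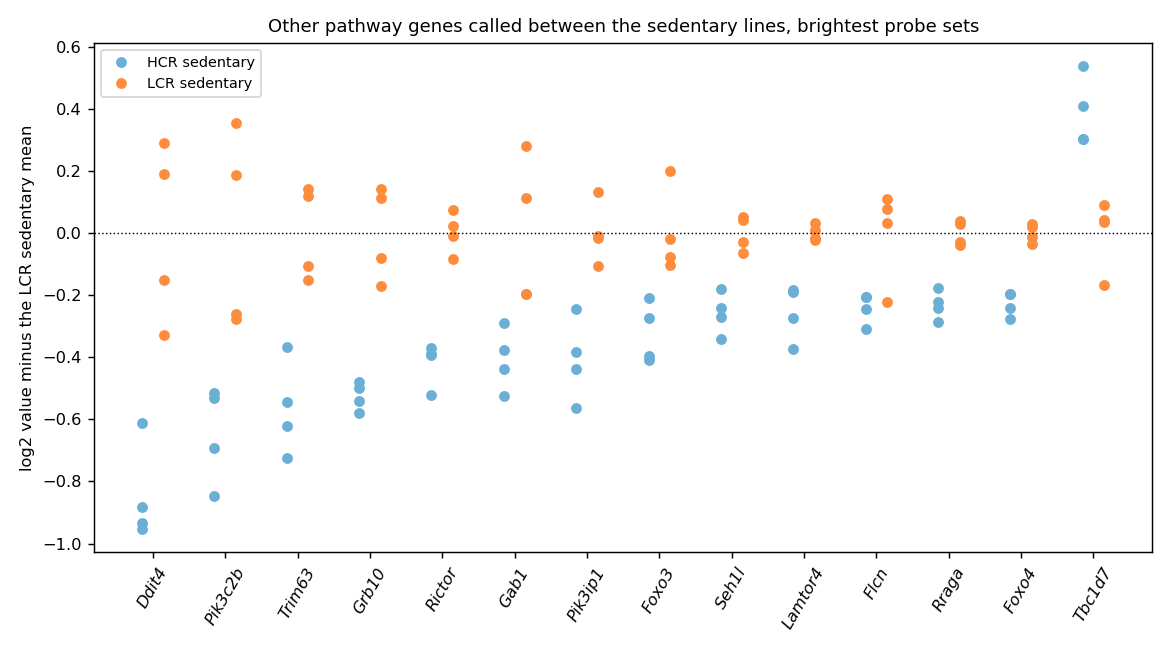
Brightest probe sets of the other pathway genes called between the sedentary lines, each HCR sedentary and LCR sedentary rat as a point, as log2 value minus the LCR sedentary mean of the gene. Ddit4, Pik3c2b, Trim63 and Grb10 have the HCR sedentary means farthest below 0, and Tbc1d7 alone has one above.

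For each member's brightest probe set, and for the called one of Pik3ca, the 3 genes with the most similar profile over the 16 arrays were found by Pearson r, as a description over rats that share arrays and groups. Pik3r1 was most like Brcc3-ps7 (r = 0.871), Nppb (r = 0.867), which encodes the natriuretic peptide BNP, and Ackr4 (r = 0.839). Mtor was most like Ppil1 (r = 0.928), Ehd1 (r = 0.918) and Eml1 (r = 0.910), and Rps6kb1 had the same first 2 genes, Ppil1 (r = 0.915) and Ehd1 (r = 0.881), followed by Gbe1 (r = 0.867). Pik3ca 1379041_at was most like Arglu1 (r = 0.914), Kmt2c (r = 0.887) and Fnbp4 (r = 0.885), and its called probe set 1382366_at most like Poglut3 (r = 0.924), Ppp2r2d (r = 0.921) and Nsd2 (r = 0.920).

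Akt1 was most like Gstcd (r = 0.902), Chmp3 (r = 0.840) and Ncapg2 (r = 0.827), and Akt2 most like Rab3a (r = 0.867), Col5a1 (r = 0.862) and Pigq (r = 0.854). Gsk3b had the closest match of all, Arhgap5 (r = 0.955), then Srrm2 (r = 0.949) and Cpne3 (r = 0.945). Tsc2 was most like Ppp2r5b (r = 0.909), Mrps16 (r = 0.908) and Rabl6 (r = 0.899), and Eif4ebp1 most like Uxt (r = 0.905), Rapgef2 (r = 0.904) and Tmem131l (r = 0.904).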

How the data were processed

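Left ventricular RNA of 16 rats was measured on 1 array each. The authors deposited RMA summaries, which behave as log2 values, per the submitters' processing notes, where RMA and limma appear without a version. No source used here states the log base, and the range of the values fits base 2. RMA equalises probe intensities before it summarises them, so arrays can still differ in the spread of the summaries. Of 31099 probe sets 57 are controls, and the other 31042 were all tested, dim ones included. A single gene symbol was annotated for 20826, several for 436 and none was listed for 9780. All 9 member gene IDs were found in RefSeq under the same symbol. Probe sets of a gene were ranked by brightness, and differences in level between probe sets were not tested.

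A mean for each of the 4 groups was fitted to all 16 arrays with limma 3.58.1 (R 4.3.3), without covariates, which leaves 12 residual degrees of freedom. The 7 comparisons were two-sided and adjusted by Benjamini-Hochberg over 31042 probe sets. Groups and rat numbers came from the sample titles, so replicates are separate rats. The fit was tested on simulated data with independent noise and no difference in spread between arrays, so that test does not cover such a difference. Permutation tests used 100000 resamples for correlations and all regroupings for marker lists. Named genes were all members, up to 4 called genes per pathway list and comparison (lowest adjusted p) or, where a list had none, the gene of lowest p. The members and lists were chosen with earlier results of these data known. Alternatives covered the scaling, a filter on dim probe sets, 1 probe set per gene, the arrays in the fit, the variance model, array weights, a replicate block and leaving out each array.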

Additional observations from a re-analysis of the deposited data

Results flagged for a closer look

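In 5 of 80 groups of 4 rats (20 probe sets, 4 groups each) the lowest or highest rat stood apart from the other 3 by more of the group's range than Dixon's 95% critical value allows, which chance exceeds in about 1 of 20 groups. Akt2 1368832_at was low in HCR trained rat 6, at 7.41 with the nearest rat at 7.78. Mtor was high in LCR sedentary rat 6, at 8.37 with the nearest at 8.25. Tsc2 was high in LCR trained rat 2, at 8.56 with the nearest at 8.46. Rps6kb1 1398396_at was low in HCR trained rat 4, at 7.36 with the nearest at 7.44, and Eif4ebp1 was low in HCR sedentary rat 6, at 9.19 with the nearest at 9.29.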

How the results depend on the processing

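Between the sedentary lines 2 member probe sets were called. The count was 8 with arrays centred on their medians and 8 with array weights, and 0 with quantile normalization, with the trended and robust variance model, and with the interquartile range as a covariate, which was added after the data were seen. Leaving out 1 array at a time gave 0 to 3. Averaged over training the count was 0 as reported, 2 with centred arrays, 2 with only probe sets of at least median brightness, 1 with only the brightest probe set of each gene, 1 with array weights and 0 to 2 with 1 array left out. In the other 5 comparisons it stayed 0 under every alternative run. With the rat number as a replicate block the sedentary count was 3 and the count averaged over training was 2, Pik3r1 at 0.67 (adjusted p = 0.0280, limma) and Eif4ebp1 at -0.24 (adjusted p = 0.0269, limma). Rats of the same number in different groups deviated from their group means at r between -0.23 and 0.34, 6 of 16 pairs over 0.1. For rats of other numbers r lay between -0.41 and 0.46, with 19 of 80 pairs over 0.1. Whether rats of the same number share more than the number was not tested. Values over the 7 comparisons were counted for each member's brightest probe set and the called one of Pik3ca. Under other settings 568 of 593 kept their side of the threshold, and with 1 array left out 1094 of 1120 did. Most were uncalled to begin with, so a high share was close to fixed in advance. The 2 sedentary calls were lost in 8 (Pik3r1) and 10 (Pik3ca 1382366_at) of 16 left-out arrays. In these counts 0 called values changed sign, while 29 and 49 uncalled values did. Over all probe sets, 1549 sedentary calls compare with 4183 with array weights, 3000 with the replicate block, 2460 with centred arrays, 543 with quantile normalization, 2 with the covariate and 35 to 1994 with 1 array left out, and 1191 averaged calls with 723, 46 and 520 to 2575 for the last 3. The causes were not tested. Probe sets near background have compressed differences, and 4 arrays per group limit the precision.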
